A study of Mus musculus with 9 samples.

Results

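The 10 genes Sncg, Gm364, Tceanc, Mdga1, A2m, Myl4, Tspan8, Myo1f, 2410004A20Rik and 2210409E12Rik were described across all 9 libraries of the series, out of 33495 genes in the deposited table. They were chosen by their measured levels in these same libraries, which were higher in the Nanog L122A and Nanog WT libraries than in the EGFP libraries. The difference between Nanog and EGFP cells is therefore how they were chosen and is given as a description, with no test. Their responses to culture and the difference between L122A and WT were not the stated ground of the choice and were tested. The same L122A and WT levels entered the choice, and earlier results of these data were known. These tests are therefore not fully independent of the choice.

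RNA was sequenced from RF8 cells, a mouse embryonic stem (ES) cell line, carrying 1 of 3 transfected constructs. L122A cells received Nanog with the L122A change, WT cells received Nanog WT, and EGFP cells received the fluorescent protein EGFP as the control. Each was grown in 3 cultures with 1 library per combination. The RA culture had no LIF (leukaemia inhibitory factor) and 5 µM retinoic acid (RA), the no-LIF culture had neither, and the LIF culture was the routine medium, KO-DMEM with 15% FCS, puromycin and 1000 units of LIF per ml. Whether FCS and puromycin were kept in the first pair of cultures, the time in culture, the promoter of the constructs and the number of clones per line are not stated in the sources used here. The labels name no second line of any construct, so a property of 1 transfected line and an effect of its construct cannot be told apart.

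Nanog is a homeodomain transcription factor of the pluripotency network. When expressed from a transgene it can hold mouse ES cells undifferentiated without LIF, while RA drives these cells out of pluripotency. The 10 genes do not form 1 pathway. They include a secreted protease inhibitor, a pair of cell surface proteins, a pair of myosin components, a synuclein, a protein with domains of a transcription elongation factor, a protein of the oocyte, a predicted gene and a transcribed pseudogene.

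The libraries held between 24166395 and 28714988 counts. Levels are given as CPM, each count divided by its library's size after trimmed-mean scaling, with factors between 0.810 and 1.25. Nanog itself had 258 CPM in L122A, 195 CPM in WT and 0.871 CPM in EGFP cells with RA. Without LIF these levels were 130 in L122A, 168 in WT and 290 in EGFP cells, and with LIF 239, 222 and 384 CPM in L122A, WT and EGFP cells. Nanog counts were thus above EGFP in the RA culture alone, and the counts do not separate transfected from endogenous transcripts. All 8 ES cell markers reached 1 CPM in every transfectant. Their summed level with RA was 573 CPM in L122A, 114 CPM in WT and 15.8 CPM in EGFP cells, against 1876 to 5334 CPM in the 6 libraries without RA. In such bulk libraries, fewer cells of a type and less RNA per cell cannot be told apart.

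Sequence just upstream of the transcription start is shown for the pair of genes with the smallest unadjusted p between L122A and WT, Gm364 and Sncg, and for Tceanc, which lay lower in L122A than in WT. The sequences are the 250 bases before the start from RefSeq (GRCm38.p6), at chrX:57408899-57409148 on the + strand for Gm364, chr14:34374670-34374919 on the - strand for Sncg and chrX:166510479-166510728 on the - strand for Tceanc. Capitals mark TAAT, the core that many homeodomain proteins recognise, or ATTA, the same letters on the other strand.
Gm364: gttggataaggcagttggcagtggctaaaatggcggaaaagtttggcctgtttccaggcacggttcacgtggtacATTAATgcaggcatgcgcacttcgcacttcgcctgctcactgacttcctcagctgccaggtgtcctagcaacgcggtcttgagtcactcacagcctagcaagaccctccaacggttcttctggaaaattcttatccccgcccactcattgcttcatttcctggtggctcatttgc
Sncg: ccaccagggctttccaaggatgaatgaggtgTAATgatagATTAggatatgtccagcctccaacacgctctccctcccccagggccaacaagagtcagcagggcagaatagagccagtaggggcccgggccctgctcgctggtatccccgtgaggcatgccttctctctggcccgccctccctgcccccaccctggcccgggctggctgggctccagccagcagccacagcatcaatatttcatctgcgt
Tceanc: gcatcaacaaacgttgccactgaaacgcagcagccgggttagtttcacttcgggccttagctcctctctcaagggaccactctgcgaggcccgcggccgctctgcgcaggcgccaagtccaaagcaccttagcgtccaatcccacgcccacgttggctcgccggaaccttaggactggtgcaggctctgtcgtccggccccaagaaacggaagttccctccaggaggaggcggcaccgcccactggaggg
RefSeq promoters matched 8 of the 10 genes, and A2m and 2210409E12Rik had none. TAAT or ATTA stood in 6 of these 8 windows, namely Gm364 and Sncg at 2 positions each and Mdga1, Myl4, Tspan8 and 2410004A20Rik at 1 each. The pair in Gm364 overlaps, as ATTAAT reads TAAT on either strand. Tceanc and Myo1f had no match. Over all 32851 promoter windows of the same length, 54.9% held TAAT or ATTA. The longer TAATGG, or CCATTA on the other strand, stood in 6.57% of all windows and in 0 of the 8. A match describes letters in these windows and says nothing of binding.

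Of the tested genes, 9.45% had both Nanog libraries above EGFP in each of the 3 cultures, and all 10 genes did so, as their choice implies. In Sncg, Gm364, Tceanc, Mdga1 and Myl4, 5 of the 10, all 6 Nanog libraries lay above all 3 EGFP libraries (1.38% of tested genes). Taking 0 counts as 0 CPM, both Nanog libraries were at least 2-fold above EGFP in every culture for 7 of the 10 (0.672% of tested genes), Tceanc, Mdga1 and Myl4 being the exceptions. The count of 7 goes by the ratios themselves and takes in 2410004A20Rik, which with RA had 5 counts in WT and 0 in EGFP cells. The exact 95% interval of that ratio starts at 0.921, so the difference was within counting error. Intervals also reached below 2 for Tspan8 in L122A with RA (2.18, 1.64 to 2.92) and A2m in WT without LIF (2.82, 1.70 to 4.84). All 10 passed the filter of at least 1 CPM in at least 3 libraries, but in EGFP cells Gm364, Tceanc and Myl4 alone reached 1 CPM in all 3 cultures. 2210409E12Rik did so in 2 EGFP libraries and the other 6 genes in 1, so these 7 entered the tests largely through their Nanog libraries.

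**Figure D1:**
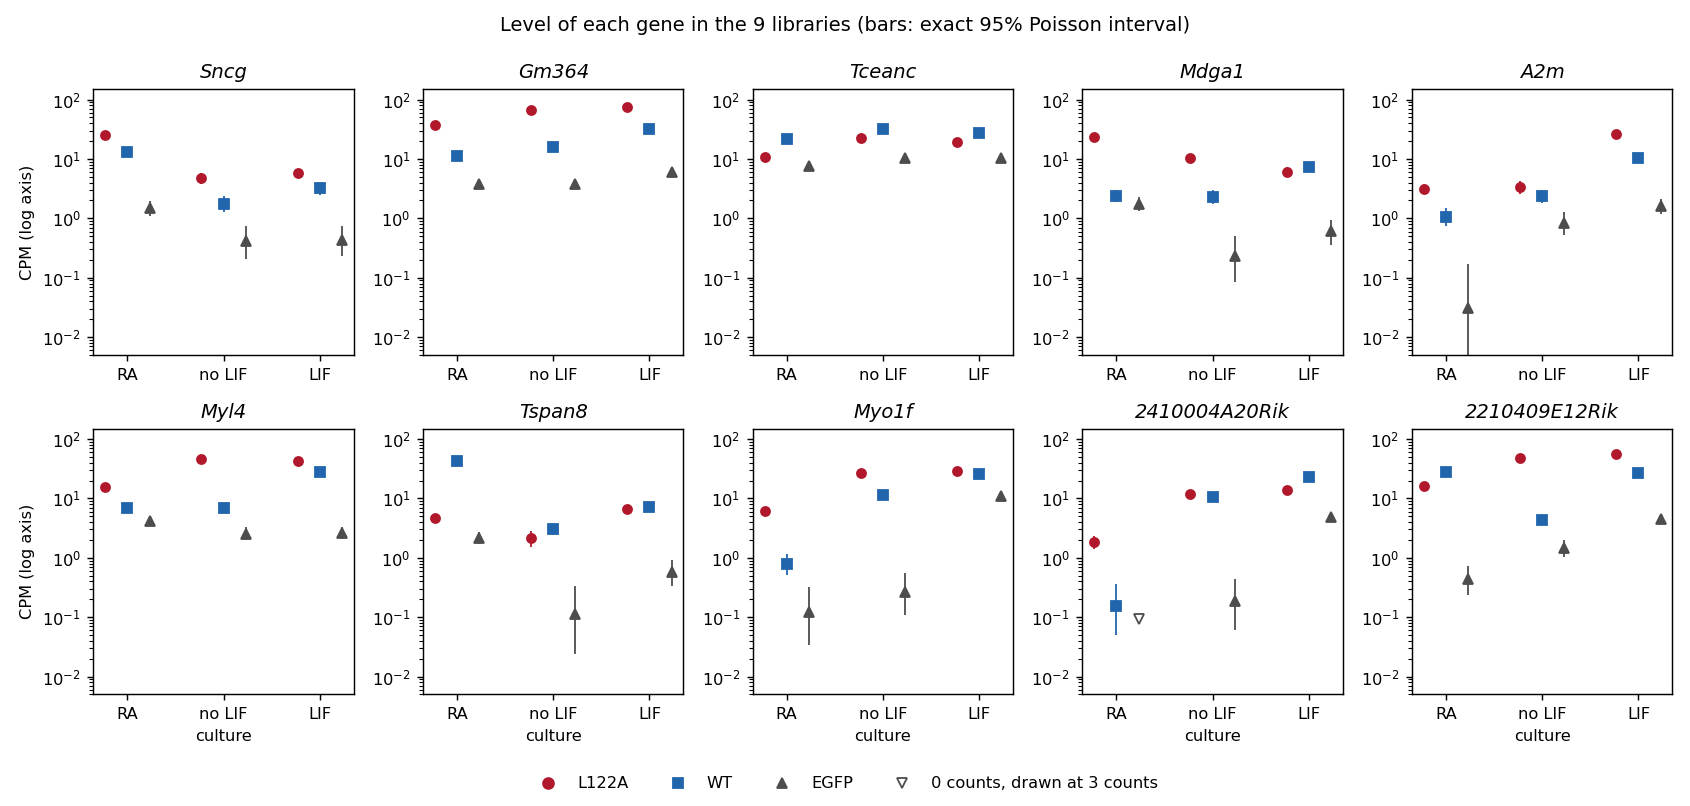
Level of each of the 10 genes in the 9 libraries, in CPM on a log axis, by culture, with L122A as circles, WT as squares and EGFP as filled triangles. Bars are exact 95% Poisson intervals, the open triangle stands for 0 counts drawn at 3 counts, and the interval of A2m in the EGFP RA library runs below the axis. In every culture both Nanog libraries lie above EGFP, from 1.34-fold in Mdga1 (WT with RA) to 102-fold in Myo1f (L122A without LIF).

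A2m encodes alpha-2-macroglobulin, a secreted protein that traps proteases (ENSMUSG00000030111, mm9 chr6:121586245-121629244). A2m with RA had 3.14 CPM in L122A, 1.06 in WT and 0.0311 in EGFP cells, the last from 1 count. A2m without LIF had 3.34 CPM in L122A, 2.37 in WT and 0.839 in EGFP cells. With LIF, A2m had 25.8 CPM in L122A, 10.3 in WT and 1.60 in EGFP cells. L122A was the highest and EGFP the lowest in each culture, and the LIF libraries were the highest of each transfectant, although the EGFP LIF library lay above WT with RA. Against EGFP the ratio with LIF was 16.1 in L122A (exact 95% interval 12.0 to 22.1) and 6.44 in WT (4.69 to 9.0). These intervals, here and below, cover counting error only. With RA the ratio was 101 in L122A (17.8 to 4023) and 34.2 in WT (5.73 to 1389), where EGFP had a single count. A2m lies on the same chromosome as Nanog, 1.03 Mb away. The liver is a known source of A2m, and the summed level of 10 hepatocyte markers was 1.11 to 2.03 CPM in L122A, 1.84 to 11.9 in WT and 0.0933 to 1.47 in EGFP libraries, with Serpina1a at 0 in all 9 and Alb at 0 in all but WT with RA.

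Tspan8 encodes a tetraspanin, a membrane protein that organises other surface proteins (ENSMUSG00000034127, chr10:115254327-115286676). Tspan8 with RA had 4.74 CPM in L122A, 43.1 in WT and 2.18 in EGFP cells. Tspan8 without LIF had 2.13 CPM in L122A, 3.10 in WT and 0.114 in EGFP cells, the last from 3 counts. With LIF, Tspan8 had 6.59 CPM in L122A, 7.13 in WT and 0.568 in EGFP cells. The WT RA library stood apart from the other 8. WT was above L122A in every culture, but without LIF and with LIF by no more than counting error. The EGFP RA library lay just above L122A without LIF, so the Nanog and EGFP libraries overlap by that pair alone. With RA, Tspan8 stood 19.8-fold above EGFP in WT (15.6 to 25.6) and 2.18-fold in L122A (1.64 to 2.92).

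Mdga1 encodes a GPI-anchored adhesion protein of the nervous system that binds neuroligins (ENSMUSG00000043557, chr17:29964903-30107032). Mdga1 with RA had 23.1 CPM in L122A, 2.38 in WT and 1.77 in EGFP cells. Mdga1 without LIF had 10.6 CPM in L122A, 2.28 in WT and 0.229 in EGFP cells, the last from 6 counts. With LIF, Mdga1 had 6.14 CPM in L122A, 7.28 in WT and 0.602 in EGFP cells. L122A with RA was the highest library and all 6 Nanog libraries lay above EGFP, but WT and EGFP with RA differed by less than counting error (1.34-fold, 0.938 to 1.92). AC151294.1 overlaps Mdga1 on the other strand with at most 0.0625 CPM.

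Myl4 encodes the essential myosin light chain of the embryo and the atrium (ENSMUSG00000061086, chr11:104411977-104457067). Myl4 with RA had 15.8 CPM in L122A, 6.97 in WT and 4.14 in EGFP cells. Myl4 without LIF had 46.9 CPM in L122A, 6.89 in WT and 2.56 in EGFP cells. With LIF, Myl4 had 43.0 CPM in L122A, 27.8 in WT and 2.61 in EGFP cells. L122A was highest in each culture, and WT approached it with LIF alone. The ratio of Myl4 to EGFP was 18.3 in L122A without LIF (14.3 to 23.9) and lowest, at 1.69, in WT with RA (1.35 to 2.11). The summed level of 10 cardiomyocyte markers was 13.1 to 65.8 CPM in L122A, 24.6 to 47.1 in WT and 29.7 to 140 in EGFP libraries. Actc1, the cardiac actin, made up most of the EGFP sums, at 120 of 140 CPM with RA, 89.2 of 94.5 without LIF and 18.4 of 29.7 with LIF. Without Actc1 the other 9 markers, which include Myl7, summed to 51.2 CPM in L122A, 24.4 in WT and 20.03 in EGFP cells with RA, to 21.1, 22.4 and 5.30 CPM in L122A, WT and EGFP cells without LIF, and to 12.3, 28.6 and 11.3 CPM with LIF. EGFP was then the lowest in each culture, as it was for Myl4. Myl7 alone made up 44.8, 19.6 and 12.8 CPM of these sums in L122A, WT and EGFP cells with RA. With LIF it made up 9.29, 21.2 and 4.05 CPM in the same order. Leaving out Myl7 as well, EGFP was the highest with RA, L122A the lowest with LIF and EGFP still the lowest without LIF. The part of these markers in the Myl4 values was not tested. Lin52, AL603709.2, AL603709.3, AL603709.4 and AL603709.5 lie within Myl4, each with at most 0.938 CPM.

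Myo1f encodes an unconventional class I myosin best known from immune cells (ENSMUSG00000024300, chr17:33692664-33744703). Myo1f with RA had 6.22 CPM in L122A, 0.782 in WT and 0.124 in EGFP cells, the last from 4 counts. Myo1f without LIF had 27.2 CPM in L122A, 11.6 in WT and 0.267 in EGFP cells, the last from 7 counts. With LIF, Myo1f had 28.7 CPM in L122A, 25.7 in WT and 10.8 in EGFP cells. The Nanog and EGFP libraries overlap, since EGFP with LIF exceeded both Nanog libraries with RA. Without LIF, Myo1f stood 102-fold above EGFP in L122A (49.1 to 254) and 43.4-fold in WT (20.8 to 109), whereas with LIF these ratios were 2.65 in L122A and 2.38 in WT. The summed level of the 9 haematopoietic markers in the file was also highest in L122A in each culture, at 60.4 to 105 CPM in L122A, 23.9 to 62.1 in WT and 18.6 to 37.9 in EGFP libraries. Laptm5, a lysosomal membrane protein of blood cells, made up 72.6 of 85.8 CPM in L122A with RA and 74.9 of 105 CPM in L122A with LIF. Without Laptm5 the sums with RA were 13.3 CPM in L122A, 11.6 in WT and 16.0 in EGFP cells, while L122A remained the highest in the other cultures. In each transfectant 4 of the 9 reached 1 CPM, and the leukocyte gene Ptprc was at 0 in every library except WT with RA (0.0625 CPM), while Tyrobp and Emr1 never passed 0.367 CPM. The part of blood cells in the Myo1f values was not tested.

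Sncg encodes gamma-synuclein, a small soluble protein abundant in peripheral neurons (ENSMUSG00000023064, chr14:35183460-35187975). Sncg with RA had 25.3 CPM in L122A, 12.9 in WT and 1.49 in EGFP cells. Sncg without LIF had 4.76 CPM in L122A, 1.75 in WT and 0.42 in EGFP cells. With LIF, Sncg had 5.73 CPM in L122A, 3.25 in WT and 0.435 in EGFP cells. The transfectants kept 1 order in all cultures, L122A above WT above EGFP, and the RA library was the highest of each. Sncg stood 11.3-fold to 17.0-fold above EGFP in L122A and 4.18-fold to 8.63-fold in WT. The 8 neuron markers in the file summed to 96.8 CPM in L122A, 49.0 in WT and 85.2 in EGFP cells with RA, and to 266 to 606 CPM in the other 6 libraries. Stmn2 made up most of the sums without RA, such as 545 of 606 CPM in L122A without LIF and 533 of 592 CPM in WT with LIF. Without Stmn2 the neuron sums with RA were 26.7 CPM in L122A, 33.5 in WT and 72.3 in EGFP cells, against 93.9, 58.6 and 72.5 CPM in L122A, WT and EGFP cells with LIF. Syt1, a synaptic vesicle protein on that list, was higher with RA than with LIF in all 3, at 4.63 against 0.361 CPM in L122A, 9.54 against 0.344 in WT and 6.59 against 1.77 in EGFP cells. Tubb3, Gap43, Stmn2 and Elavl3 on that list ran the other way, lower with RA than with LIF in all 3. Snap25, Nefl and Nefm differed in direction between transfectants. The part of neurons in the Sncg values was not tested.

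Tceanc encodes a protein with the N-terminal and central domains of TFIIS, the factor that restarts stalled RNA polymerase II (ENSMUSG00000051224, chrX:162937744-162956499). Tceanc with RA had 10.9 CPM in L122A, 21.4 in WT and 7.5 in EGFP cells. Tceanc without LIF had 22.7 CPM in L122A, 32.1 in WT and 10.4 in EGFP cells. With LIF, Tceanc had 19.4 CPM in L122A, 27.7 in WT and 10.6 in EGFP cells. WT was the highest in every culture, and the ratio of the highest to the lowest library was the smallest of the 10 genes. The ratio of Tceanc to EGFP ran between 1.45 and 2.19 in L122A and between 2.62 and 3.10 in WT.

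2410004A20Rik is a RefSeq synonym of Khdc3 (Filia), a KH-domain protein of the oocyte's subcortical maternal complex that is also made in ES cells (ENSMUSG00000032214, chr9:72950256-72952250). With RA, 2410004A20Rik had 1.85 CPM in L122A, 0.156 in WT (5 counts) and 0 counts in EGFP cells, where 3 counts would be 0.0933 CPM. Without LIF, 2410004A20Rik had 11.6 CPM in L122A, 10.7 in WT and 0.191 in EGFP cells (5 counts). With LIF, 2410004A20Rik had 13.9 CPM in L122A, 23.2 in WT and 4.78 in EGFP cells. The libraries overlap between groups, since EGFP with LIF lay above both Nanog libraries with RA. With RA and EGFP set at 3 counts, the ratio to EGFP was 19.8 in L122A and 1.68 in WT. The exact 95% intervals, taken from the 0 counts, start at 15.7 in L122A and 0.921 in WT. WT with RA thus differed from EGFP by no more than counting error. Without LIF the ratio was 61.0 in L122A (25.8 to 190) and 56.3 in WT (23.8 to 175), and with LIF 2.91 in L122A and 4.85 in WT.

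Gm364 is an X-linked predicted protein-coding gene (ENSMUSG00000079584, chrX:54662331-54741944). Gm364 with RA had 37.3 CPM in L122A, 11.2 in WT and 3.83 in EGFP cells. Gm364 without LIF had 66.5 CPM in L122A, 16.0 in WT and 3.78 in EGFP cells. With LIF, Gm364 had 74.6 CPM in L122A, 32.2 in WT and 6.05 in EGFP cells. All 3 L122A libraries lay above all 3 WT libraries, and these above all 3 EGFP libraries. The ratio to EGFP was 9.75 to 17.6 in L122A and 2.93 to 5.32 in WT.

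2210409E12Rik is listed by RefSeq as a transcribed pseudogene (ENSMUSG00000081766, chr11:88833971-88834316), with a feature length of 149 bases in the file. It lies inside Coil on the same strand, so its reads cannot be told apart from Coil's with certainty. With RA, 2210409E12Rik had 16.2 CPM in L122A, 28.0 in WT and 0.435 in EGFP cells. Without LIF, 2210409E12Rik had 47.4 CPM in L122A, 4.32 in WT and 1.45 in EGFP cells. With LIF, 2210409E12Rik had 55.7 CPM in L122A, 26.4 in WT and 4.45 in EGFP cells. WT without LIF was the low Nanog library and fell just under EGFP with LIF. Among the no-LIF libraries Coil had 70.5 CPM in L122A, 56.3 in WT and 41.5 in EGFP cells.

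**Figure D2:**
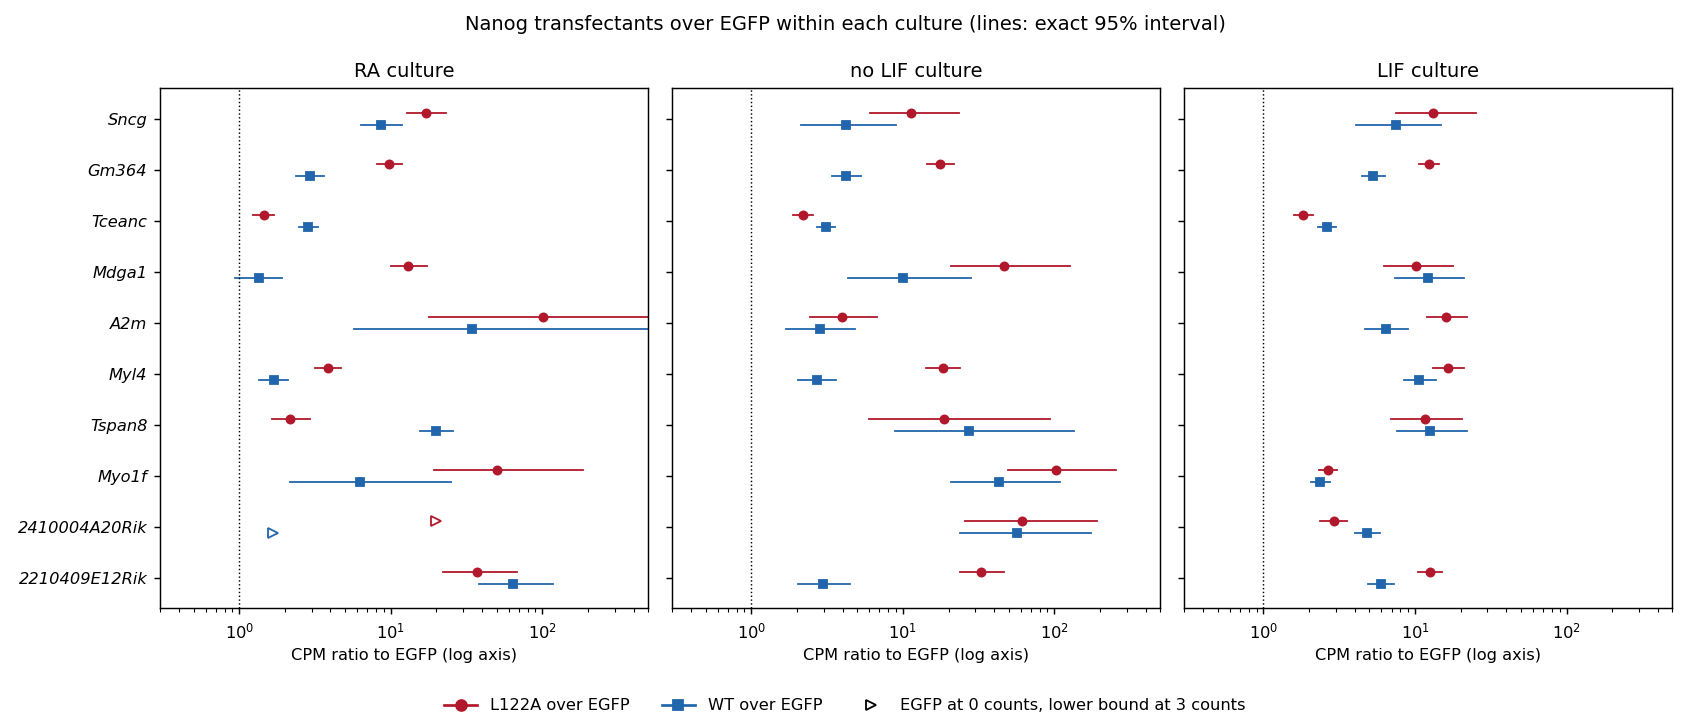
CPM of L122A (circles) and WT (squares) divided by CPM of EGFP for the 10 genes, on a log axis, in the RA, no-LIF and LIF cultures. Lines are exact 95% intervals of counting error, triangles are lower bounds where EGFP had 0 counts, and the A2m intervals with RA run past the axis. With RA the WT ratios spread from 1.34 (Mdga1) to 64.2 (2210409E12Rik), and with LIF all 20 ratios lie between 1.83 and 16.5.

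Per length, the genes differed widely in abundance. In the authors' FPKM values (fragments scaled to feature length and library depth) for L122A with LIF, 2210409E12Rik had the highest level, 343, on its short feature. Gm364 followed with 31.7 FPKM, and Mdga1 had the lowest level, 0.69 FPKM. Nanog had 97.8 FPKM in that library.

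With RA against LIF, 1 of the 10 rose and 4 fell, beside 24.5% of all 13996 tested genes higher and 23.8% lower (48.2% called either way), so the count itself was close to that of all genes. RA lay below LIF in all 3 transfectants for 5 of the 10 (35.8% of tested genes) and above it for 1 (36%). The test was edgeR's additive quasi-likelihood model of culture and transfectant at a Benjamini-Hochberg adjusted p below 0.05. With 1 library per combination it asks whether a change repeats over the 3 transfectants, not over replicate cultures. The median log2 fold change was -1.02 over the 10 genes and 0.01 over all. The RA culture also lacked LIF, so this comparison holds both changes.

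Sncg rose 3.94-fold with RA (log2 fold change 1.98, SE 0.31, edgeR adjusted p = 0.00161) and was higher in each transfectant, by 4.42-fold in L122A, 3.97-fold in WT and 3.43-fold in EGFP cells. 2410004A20Rik fell 42.1-fold (-5.40, SE 1.14, edgeR adjusted p = 0.0063), and Myo1f fell 23.2-fold (-4.54, SE 1.0, edgeR adjusted p = 0.00752). In both, the ratio of RA to LIF was highest in L122A, at 0.133 for 2410004A20Rik and 0.217 for Myo1f. In WT these ratios were 0.00675 and 0.0304, and in EGFP the ratio was 0.0115 for Myo1f. For 2410004A20Rik in EGFP, with 0 counts with RA, it was 0.0195 when set at 3 counts (exact 95% interval up to 0.0243). A2m fell 10.1-fold (-3.33, SE 0.60, edgeR adjusted p = 0.00285), with ratios of 0.122 in L122A, 0.103 in WT and 0.0194 in EGFP cells. Gm364 fell 2.10-fold (-1.07, SE 0.24, edgeR adjusted p = 0.00782) and was lower in all 3. The summed ES cell marker level with RA also followed the order L122A, WT, EGFP, and its part in the fall of these genes was not tested.

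The other 5 genes were not called with RA against LIF. Tceanc was lower in all 3 transfectants (-0.56, SE 0.21, edgeR adjusted p = 0.0511). Tspan8 had a log2 fold change of 1.51 (SE 0.60, edgeR adjusted p = 0.0674), with ratios of 0.719 in L122A, 6.04 in WT and 3.83 in EGFP cells. Myl4 stood at 0.368 and 0.251 of its LIF level in L122A and WT but at 1.59 in EGFP cells (log2 fold change -0.98, edgeR adjusted p = 0.195). Mdga1 stood at 3.77 in L122A, 0.326 in WT and 2.95 in EGFP cells (0.60, edgeR adjusted p = 0.511). For 2210409E12Rik the ratios were 0.29, 1.06 and 0.0979 in L122A, WT and EGFP cells (-1.26, edgeR adjusted p = 0.23). Leaving out the WT RA library ended the call of Gm364 (adjusted p = 0.054) and brought one for 2210409E12Rik (log2 fold change -2.81, adjusted p = 0.0117). Tspan8 was called without L122A RA (2.30, adjusted p = 0.00254) or L122A LIF (1.96, adjusted p = 0.0482), with total-count scaling (adjusted p = 0.0345) and by DESeq2 (adjusted p = 0.0153), which also called Tceanc (adjusted p = 0.0488), Myl4 without EGFP RA (-1.62, adjusted p = 0.0186), and Myo1f lost its call without the filter on low counts (adjusted p = 0.0623).

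**Figure D3:**
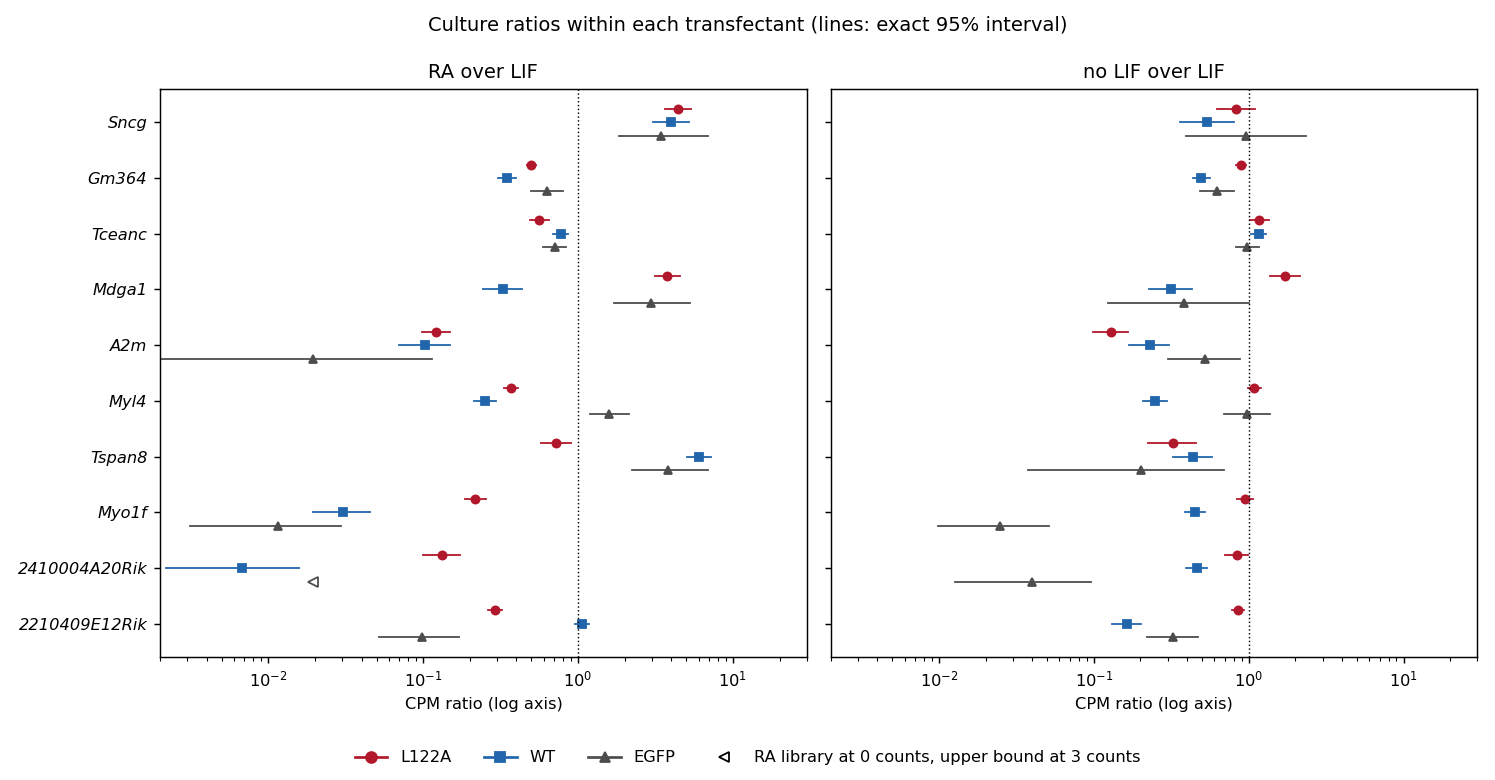
CPM ratio of the RA to the LIF culture (left) and of the no-LIF to the LIF culture (right) within L122A (circles), WT (squares) and EGFP (triangles) for the 10 genes, on log axes with exact 95% intervals of counting error. The open triangle is an upper bound at 3 counts, and the A2m interval in EGFP runs past the axis. Sncg lies above 1 with RA in all 3 transfectants, between 3.43 and 4.42, and both panels share the LIF libraries.

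Against the no-LIF culture, which lacks LIF as the RA culture does, RA raised 2 of the 10 genes and lowered 2 (22.6% and 21.9% of all tested genes, 44.5% either way). RA lay above no LIF in all 3 transfectants for 3 of the 10 (35.1%) and below it for 4 (33.5%). Sncg rose 5.31-fold (log2 fold change 2.41, SE 0.32, edgeR adjusted p = 0.00105), and Tspan8 rose 8.54-fold (3.09, SE 0.64, edgeR adjusted p = 0.00599). Tspan8 was higher in every transfectant, by 2.23-fold in L122A, 13.9-fold in WT and 19.0-fold in EGFP cells, where the no-LIF library had 3 counts. 2410004A20Rik fell 11.8-fold (-3.56, SE 1.06, edgeR adjusted p = 0.0274) and Tceanc fell 1.63-fold (-0.71, SE 0.21, edgeR adjusted p = 0.0241). Myo1f had a log2 fold change of -2.55 (edgeR adjusted p = 0.0509) and A2m of -1.37 (edgeR adjusted p = 0.0986). Mdga1 was higher in all 3 transfectants (1.37, edgeR adjusted p = 0.14). The calls of Sncg and Tspan8 held in every alternative tried. Those of 2410004A20Rik and Tceanc were lost without WT RA (adjusted p = 0.117 and 0.0771), WT no-LIF (0.0842 and 0.0627) or L122A no-LIF (0.123 and 0.0953). 2410004A20Rik also lost its call without WT LIF (adjusted p = 0.0536), and Tceanc without L122A RA (0.12), with scaling by total counts (0.305) and by limma on FPKM (0.33). Without the filter on low counts both calls were lost (adjusted p = 0.13 for 2410004A20Rik and 0.0577 for Tceanc). Myo1f was called without EGFP LIF, EGFP no-LIF or L122A LIF (adjusted p = 0.0123, 0.0157 and 0.022). It was also called by DESeq2 (adjusted p = 0.0336), with RLE scaling (0.0497), by limma on FPKM (0.0489) and with the RA and no-LIF libraries alone (0.00927). A2m was called by DESeq2 (adjusted p = 0.0312), and Mdga1 without WT RA (log2 fold change 2.05, adjusted p = 0.037).

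LIF withdrawal alone left 7 of the 10 genes lower than with LIF in all 3 transfectants, beside 14.4% of tested genes, and 0 of the 10 higher in all 3, beside 13.8%. None of the 10 was called by edgeR, as were 0.0714% of tested genes. At an unadjusted p under 0.05 there were 3 of the 10, A2m, Tspan8 and Gm364, beside 8.73% of tested genes, and DESeq2 called A2m alone (adjusted p = 0.0377). A2m had a log2 fold change of -1.97 (SE 0.59, edgeR adjusted p = 0.354), Tspan8 of -1.59 (SE 0.61, edgeR adjusted p = 0.507) and Gm364 of -0.61 (SE 0.24, edgeR adjusted p = 0.513). The median was -0.99 over the 10 genes and 0.00 over all. In EGFP cells Myo1f stood at 0.0246 of its LIF level (0.00983 to 0.0514) and 2410004A20Rik at 0.0399 (0.0128 to 0.0953). In L122A cells the same ratios were 0.947 for Myo1f and 0.838 for 2410004A20Rik, and in WT cells 0.45 and 0.463. A difference between transfectants in these ratios was not tested, as each rests on 1 library per combination.

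L122A lay above WT in all 3 cultures for 5 of the 10 genes, Sncg, Gm364, A2m, Myl4 and Myo1f, beside 12.2% of tested genes. For A2m without LIF (1.41, 0.977 to 2.04) and Myo1f with LIF (1.12, 0.992 to 1.25) this was by no more than counting error. L122A lay below WT in all 3 for Tceanc and Tspan8, 2 of the 10, beside 12.8%. For Tspan8 the ratio without LIF (0.686, 0.459 to 1.01) and with LIF (0.923, 0.729 to 1.17) was within counting error. Its log2 ratio with LIF, -0.12, was 0.05 under total-count scaling. None of the 10, and 0% of all tested genes, was called by edgeR. At an unadjusted p under 0.05 there were 5 of the 10 and 614 genes in all (4.39%), while DESeq2 called 51 genes and limma on FPKM 0. The fitted log2 fold change was above 0 in 8 of the 10 and in 51.5% of genes, with medians of 1.14 over the 10 and 0.01 over all. The L122A and WT levels also entered the choice of the 10 genes, so these counts are not fully independent of it.

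Gm364 had the smallest p of the 10 between L122A and WT. Its ratio was 3.32 with RA (2.96 to 3.75), 4.17 without LIF (3.72 to 4.68) and 2.32 with LIF (2.12 to 2.54), and the fit gave a log2 fold change of 1.67 (SE 0.24, unadjusted p = 0.000102, edgeR adjusted p = 0.357). DESeq2 called it (adjusted p = 1.19e-05), as did edgeR on the L122A and WT libraries alone (adjusted p = 0.0423). Leaving out each library in turn moved its log2 fold change between 1.44 and 1.89. Sncg followed with ratios of 1.97 with RA, 2.71 without LIF and 1.76 with LIF (1.06, SE 0.30, unadjusted p = 0.00649, edgeR adjusted p = 0.81). Tceanc ran the other way at 0.507, 0.707 and 0.699 of its WT level in the RA, no-LIF and LIF cultures (-0.66, SE 0.21, unadjusted p = 0.0116, edgeR adjusted p = 0.923).

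In the remaining genes the ratio of L122A to WT varied between cultures, a difference that was not tested. With RA, L122A stood at least 2-fold above WT in 6 of the 10 genes (6.19% of tested genes), and at least 2-fold below it in Tspan8, 1 of the 10 (5.75%). Mdga1 stood 9.72-fold above WT (7.68 to 12.5), 2410004A20Rik 11.8-fold (4.82 to 37.7) and Myo1f 7.96-fold (5.25 to 12.6). Tspan8 was 9.10-fold lower in L122A than in WT with RA. Without LIF, L122A was at least 2-fold above WT in 6 of the 10 (7.09%), with 2210409E12Rik at 10.95-fold (8.95 to 13.5) and Myl4 at 6.80-fold (5.76 to 8.06). With LIF this held for 3 of the 10 (5.22%), Gm364, A2m and 2210409E12Rik, at 2.32-fold, 2.50-fold and 2.11-fold. Mdga1, Tspan8 and Myo1f differed between L122A and WT with LIF by no more than counting error, at ratios of 0.843 (0.663 to 1.07), 0.923 (0.729 to 1.17) and 1.12 (0.992 to 1.25). 2410004A20Rik was lower in L122A than in WT there, at 0.60 (0.518 to 0.694). At least 2-fold below WT were 0 of the 10 without LIF (8.05% of tested genes) and 0 with LIF (6.16%).

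**Figure D4:**
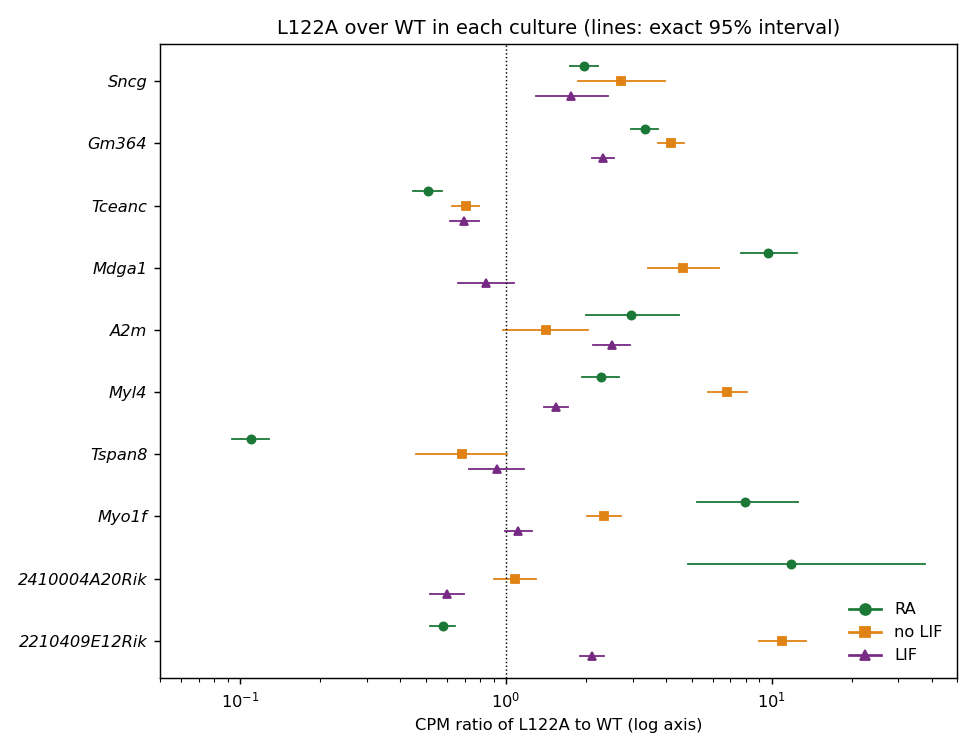
CPM ratio of L122A to WT for the 10 genes on a log axis, with RA as circles, without LIF as squares and with LIF as triangles, and exact 95% intervals of counting error as lines. Sncg, Gm364 and Myl4 lie to the right of 1 in all cultures with their intervals, Tceanc lies to the left, and the LIF ratios lie between 0.60 and 2.50.

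Relatives of the 10 genes did not share their pattern as a group. Of 65 relatives listed (other synucleins, tetraspanins, class I myosins, myosin light chains, alpha-2-macroglobulins, TFIIS proteins, Mdga2 and other proteins of the subcortical maternal complex), 59 were in the file and 43 were tested. In Nanog transfectants against EGFP, 2 rose and 5 fell, beside 0.829% of tested genes higher and 2.54% lower (3.37% either way), with a median log2 fold change of -0.13. Myo1g, the class I myosin of leukocytes, rose 2.93 on the log2 scale (SE 0.57, edgeR adjusted p = 0.034). It had 3.03 CPM in L122A, 0.563 in WT and 0.124 in EGFP cells with RA, 8.50, 3.79 and 0.305 CPM in L122A, WT and EGFP cells without LIF, and 12.3, 9.69 and 3.11 CPM with LIF, an order shared with Myo1f. Myl7, the atrial regulatory light chain, rose 1.75 (SE 0.38, edgeR adjusted p = 0.0488), while Myl9, the smooth muscle regulatory light chain, fell by 2.36 (SE 0.40, edgeR adjusted p = 0.0231). Both calls of higher relatives were lost without the EGFP no-LIF, L122A no-LIF, WT LIF or WT no-LIF library or the EGFP RA library (adjusted p from 0.0534 to 0.23), with total-count scaling and with limma on FPKM. Myl7 also lost its call without EGFP LIF or L122A RA and with RLE scaling.

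Of 24 other tetraspanins tested, 0 rose and 3 fell, namely Tspan2 (-1.93, SE 0.26, edgeR adjusted p = 0.0102), Tspan9 (-1.47) and Tspan7 (-1.31), opposite in direction to Tspan8. Tspan2 with RA had 27.7 CPM in L122A, 58.0 in WT and 212 in EGFP cells. Cd109, a GPI-anchored member of the alpha-2-macroglobulin family, fell by 1.60 on the log2 scale (SE 0.28, edgeR adjusted p = 0.0221). The summed level of the 10 fibroblast markers was lower in L122A and WT than in EGFP cells of the same culture, at 7.49 to 16.3 CPM in L122A, 6.69 to 48.1 in WT and 29.99 to 402 in EGFP libraries. Collagens made up most of the EGFP RA sum, with Col1a1 at 172 CPM, Col3a1 at 139 and Col1a2 at 51.1. Without Col1a1 the fibroblast sums with LIF were 12.8 CPM in L122A, 4.38 in WT and 10.7 in EGFP cells. EGFP remained the highest in the other cultures. Thy1 lay above EGFP in L122A and WT with LIF, at 11.6 CPM in L122A, 4.08 in WT and 1.37 in EGFP cells. Thy1 did so without LIF as well, at 3.998 CPM in L122A, 5.38 in WT and 2.25 in EGFP cells. In L122A cells 3 of the 10 reached 1 CPM, in WT 7 and in EGFP 8, Fap and Lum were at 0 in all L122A libraries and Lum in all WT libraries, and their part in the falls was not tested. Without the EGFP no-LIF library none of the 5 relatives called lower was called. Myl9 and Cd109 also lost their calls without L122A no-LIF, WT LIF or WT no-LIF (adjusted p from 0.0672 to 0.0799), Myl9 without L122A RA and Cd109 without EGFP RA or WT RA. Without the filter on low counts Myl9 lost its call (edgeR adjusted p = 0.0596), as did Cd109 by limma on FPKM (adjusted p = 0.0555). No other list held a called gene. Tcea3, a further TFIIS protein, had a log2 fold change of 1.51 (edgeR adjusted p = 0.19) and Tle6, a partner of Khdc3 in the subcortical maternal complex, of 1.31 (edgeR adjusted p = 0.0913). DESeq2 called Tcea3 and Tle6 (adjusted p = 0.0119 and 0.0247). The median log2 fold change was 0.71 over the 3 tested TFIIS proteins and 1.31 over the 3 tested proteins of the complex. In the lists with a called gene it was -0.24 for tetraspanins, -0.41 for alpha-2-macroglobulins, -0.13 for class I myosins and 0.05 for myosin light chains. Mdga2 did not pass the filter.

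Genes lying near the 10 were also examined. Within 100 kb lay 53 genes, 32 of them tested, of which 5 rose in Nanog transfectants against EGFP and 0 fell, beside 0.829% and 2.54% of all tested genes, with a median log2 fold change of 0.42 against 0.00 over all. The 5 include Coil, whose reads cannot be told apart with certainty from those of 2210409E12Rik. The call of Coil may therefore restate in part the values by which 2210409E12Rik was chosen. Rab27a, a GTPase of secretory vesicles, lies just before 2410004A20Rik on the same strand (chr9:72892672-72945399) and rose 2.20 (SE 0.32, edgeR adjusted p = 0.0131). With RA, Rab27a had 11.7 CPM in L122A, 2.81 in WT and 2.05 in EGFP cells. Rab27a without LIF had 58.3 CPM in L122A, 21.5 in WT and 5.00 in EGFP cells, and with LIF 37.5, 22.1 and 6.09 CPM in L122A, WT and EGFP cells. In each culture the order was L122A, WT, EGFP, unlike 2410004A20Rik with LIF. 2200001I15Rik, near Sncg on the same strand, rose 2.83 (SE 0.61, edgeR adjusted p = 0.0496), and RP23-176J13.1, near 2210409E12Rik on the other strand, rose 2.55 (SE 0.43, edgeR adjusted p = 0.021).

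Rab9, near Tceanc on the same strand, rose 0.83 (SE 0.18, edgeR adjusted p = 0.044). Coil, which encodes coilin of Cajal bodies and contains 2210409E12Rik, rose 0.80 (SE 0.18, edgeR adjusted p = 0.0493), far less than the log2 difference of 4.0 described for 2210409E12Rik. No neighbour of Gm364, Mdga1, A2m, Myl4 or Myo1f was called, and Tspan8 had none within 100 kb. All 5 calls were lost without the EGFP no-LIF library (adjusted p = 0.0689 for Rab27a to 0.24 for 2200001I15Rik). Without L122A no-LIF or WT LIF, Rab27a alone kept its call, without WT RA or WT no-LIF Rab27a and RP23-176J13.1 kept theirs, and Coil lost its call without any 1 library. Rab9 also lost its call without L122A LIF or EGFP LIF, and 2200001I15Rik without L122A RA. DESeq2 called 11 neighbours higher, and 3 were called with total-count scaling.

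**Figure D5:**
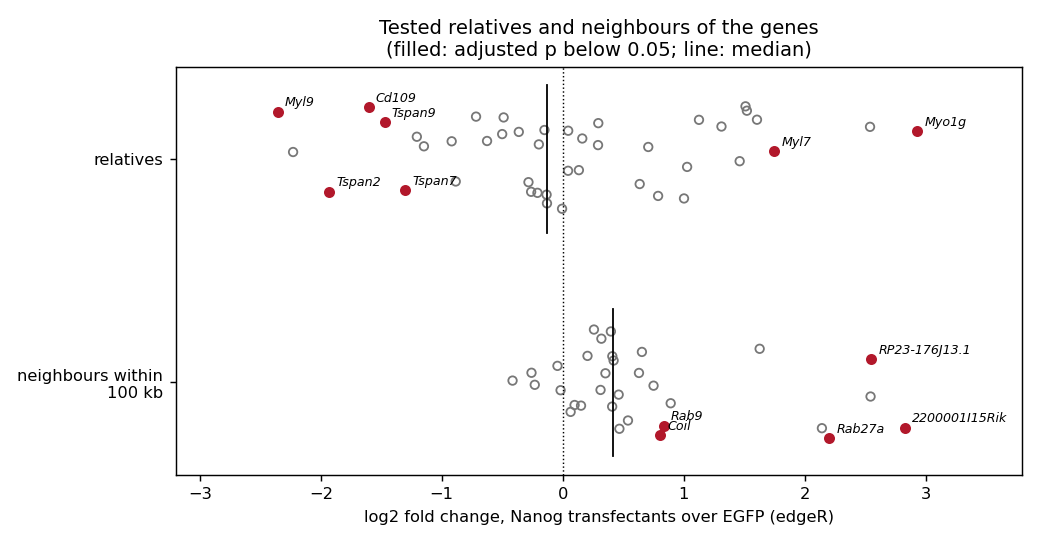
Log2 fold change of Nanog transfectants over EGFP (horizontal axis, edgeR) for the 43 tested relatives and the 32 tested neighbours of the 10 genes. Filled points have an adjusted p below 0.05, the vertical spread is for legibility only, and black lines mark the medians, -0.13 for relatives and 0.42 for neighbours. Called relatives lie on both sides of 0 and called neighbours to the right.

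The genes whose log2 CPM followed each of the 10 most closely were sought among 10037 tested genes of at least 5 CPM on average. Pearson's r over the 9 libraries was highest for Ogt with Sncg (0.997) and for 1700029P11Rik with Myo1f (0.99). Aldh2 followed Gm364 (0.984), Pola1 followed 2410004A20Rik (0.98) and Pccb followed 2210409E12Rik (0.979). B3galnt1 followed Myl4 (0.961), Mms19 followed A2m (0.959), Mcf2l followed Tceanc (0.951), Pdha1 followed Tspan8 (0.946) and mt-Nd5 followed Mdga1 (0.919). These are the highest of many candidates over libraries that share cultures and transfectants, and are given as a description. Ogt, for example, had 142 CPM in L122A, 132 in WT and 101 in EGFP cells with RA, a far smaller span than Sncg in the same libraries. By Spearman's rho the closest gene was the same for 2 of the 10, Sncg and Gm364.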

How the data were processed

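The raw counts of reads per gene were made by the authors and deposited without normalization, per the file headers. The FPKM values were also made by the authors, per the file headers. The submitters' processing notes name TopHat2 2.0.11 and the mm9 build. How reads were counted, how strand was handled, any filters and the culture times are not stated here, so antisense reads cannot be told apart. Columns of 1 culture carry a name found in no label and were given to the LIF culture by elimination, and L122 was taken as L122A. 9 of the 10 genes were found by name and 2210409E12Rik by the file's alternate identifier. Starts in the file count from 0 and were moved to count from 1. The members and lists were chosen with earlier results of these data known.

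The 13996 genes that reached 1 CPM in 3 or more libraries were tested in edgeR 4.0.16 (R 4.3.3), an additive robust quasi-likelihood model of culture and transfectant with TMM scaling, 4 residual degrees of freedom and a biological coefficient of variation of 0.325. The spread is the departure from additivity. The SE is the size of the log2 fold change divided by the root of the F statistic. Fold changes of Nanog against EGFP take the mean of L122A and WT. Ratios within a culture have exact 95% intervals, and 0 counts were given a floor of 3 counts per library. Alternatives were RLE factors, total counts, no filter, DESeq2 1.42.0, limma 3.58.1 on log2(FPKM + 1), the levels compared alone, and leaving out each library. Named were the 10 genes, Nanog, overlapping genes, the most similar gene of each, called neighbours, and per list of relatives the called gene with the largest change each way or else the one with the smallest p; Tspan7 and Tspan9 were named after their values were seen, to complete a count of 3. A gene that this rule names is not reported here. Intervals used scipy 1.17.1 and figures matplotlib 3.10.9 in Python 3.11.15 with pandas 2.3.3.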

Additional observations from a re-analysis of the deposited data

Results flagged for a closer look

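In 4 of the 10 genes the response to culture ran in opposite directions in different transfectants. In each pair given below, the intervals of the 2 ratios lay on opposite sides of 1. These intervals cover counting error only. The share of all tested genes with such a pattern was not computed, so the count is not shown to be a trait of the 10. Each value is a difference of log2 ratios between 2 transfectants with 1 library per culture, so none of these differences was tested.

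Mdga1 with RA stood above LIF in L122A and EGFP cells and below it in WT cells. The log2 ratio of RA to LIF was 3.53 higher in L122A than in WT, and in WT it differed from EGFP by -3.17. Without LIF, Mdga1 stood above its LIF level in L122A alone, and the log2 ratio of no LIF to LIF exceeded that of WT by 2.46 and that of EGFP by 2.18. Myl4 with RA stood below LIF in both Nanog transfectants and above it in EGFP cells, with differences from EGFP of -2.11 in L122A and -2.66 in WT. Against the no-LIF culture the Myl4 difference between L122A and EGFP was -2.26.

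Tspan8 with RA stood below LIF in L122A cells and above it in the others, by a difference of -3.07 from WT and -2.41 from EGFP. 2210409E12Rik with RA stood above the no-LIF culture in WT cells, at 6.46-fold (5.28 to 7.98), and below it in L122A and EGFP cells. The log2 ratio differed by -4.24 between L122A and WT and by 4.43 between WT and EGFP. The WT no-LIF level of 4.32 CPM enters both values.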

How the results depend on the processing

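No called fold change of the 10 genes or the named relatives and neighbours changed sign, Tspan7 and Tspan9 not being among those followed. Of their recomputed fold changes, 778 kept direction and side of the threshold or, where there was no test, shifted by less than their SE. A further 77 lost a call, 21 gained one and 16 uncalled ones changed sign. Another 16 without a test, between Nanog and EGFP, shifted by more than their SE. By limma on log2(FPKM + 1), which compresses low levels, these included 0.87 against 3.05 for A2m and 0.77 against 3.29 for Mdga1. RA against no LIF, 2210409E12Rik (-0.05) was 0.27 by limma, 0.0067 without the filter, 0.44 with total counts and -1.31 to 0.90 without 1 library, and Myl4 (-0.30) was 0.11 with total counts and -1.02 to 0.32 without 1 library. Leaving out 1 library also gave -0.22 to 1.88 for 2410004A20Rik between L122A and WT, -0.064 to 1.502 for Mdga1 with RA against LIF, and -1.44 to 0.34 for Mdga1 and -1.36 to 0.0097 for Myl4 without LIF against LIF. With total counts the L122A to WT log2 ratio of 2410004A20Rik without LIF was -0.10 against 0.12. DESeq2 called 51 genes between L122A and WT, of which 1 of the 10, against 0; the L122A and WT libraries alone gave 3, of which 1 of the 10, and no filter 1. Between Nanog and EGFP, 472 genes were called, 1377 by DESeq2, 254 by limma and 110 to 584 without 1 library. Neighbours called higher (5) were 11 by DESeq2, 3 with total counts and 0 to 5 without 1 library. Relatives called higher (2) were 8 by DESeq2, 1 with RLE factors, 0 by limma or total counts and 0 to 4 without 1 library. Relatives called lower (5) were 9 by DESeq2, 3 by limma and 0 to 6 without 1 library.

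RA against LIF called 6751 genes, 3423 higher and 3328 lower, and 4067 to 6682 without 1 library. The split was 4501 and 1947 with total counts, whose all-gene median was 0.39, and 4671 and 2133 by limma. RA against no LIF called 6235 genes (3168 and 3067), 3499 to 6309 without 1 library, with a split of 4453 and 1679 and a median of 0.43 under total counts and 4685 and 1838 by limma. Of the 10 genes, 4 were called there, 2 without the filter and 2 to 5 without 1 library. No LIF against LIF called 10 genes, 278 by DESeq2 (of which 1 of the 10), 4 by limma, 37 without the filter, 86 with the levels compared alone, 2 with total counts and 0 to 43 without 1 library. The causes of these shifts were not tested. Levels of Sncg, A2m, Tspan8, Mdga1, Myo1f and 2410004A20Rik in EGFP cells rest on few counts, down to 0. No paired analysis was possible because each combination has 1 library, all numbered replicate 1, and the additive model already has culture as a term.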
